A study of Mus musculus with 81 samples.

Results

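The comparison described here is that of the maternal choline diet within trisomic dentate granule cells (DGCs). It set 9 libraries of Ts65Dn (Ts) mice whose dams ate a choline-supplemented diet (ChP) against 6 libraries of Ts mice whose dams ate a choline-normal diet (ChN), 15 of the 81 libraries of the series. The members were chosen by population, genotype and diet alone, each library is a different mouse, and no mouse belongs to both diets. Ts65Dn mice carry an extra minichromosome with a segment of mouse chromosome 16 (Mmu16) that is orthologous to part of human chromosome 21, and with a piece of mouse chromosome 17 (Mmu17) that is not.

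Dams ate 5.0 g/kg choline chloride in the ChP group and 1.1 g/kg in the ChN group, from the start of gestation until weaning. All offspring of both groups then ate the control diet, and all were about 6 months old when the brains were taken. The mice of all groups descend from Ts65Dn dams and C57Bl/6J Eicher × C3H/HeSnJ F1 sires, so that alleles of both parental strains segregate among them. DGCs were cut from Nissl-stained frozen sections of the rostral hippocampus by laser capture microdissection (LCM), and the collected neurons of each brain gave 1 stranded total RNA library. The further dentate libraries used below for comparison are those of disomic (2N) mice, 6 ChN and 7 ChP.

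The dentate gyrus receives cortical input through the perforant path and passes it to CA3 by way of mossy fibers, and its granule cells are among the few neurons that are still born in the adult rodent brain. Choline is a precursor of phosphatidylcholine through the CDP-choline route and of acetylcholine, and after oxidation to betaine it feeds methyl groups into the methionine cycle, from which DNA and histone methyltransferases draw. The libraries were taken from adults long after the diets had become equal, and the comparison asks which transcript levels still differed then.

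Values are given as CPM, counts scaled to a common library size with TMM factors, and differences as log2 fold changes (LFC, ChP minus ChN). A gene with an unadjusted p under 0.05 in edgeR's quasi-likelihood test is called a differentially expressed gene (DEG), the threshold the study used, and the adjusted p of every DEG but Pcp4 and Hjurp was over 0.9. The libraries held 692841 to 1680698 expected counts. The mean total was 930751 in ChP and 1193593 in ChN libraries (two-sided exact permutation test, p = 0.143), and mitochondrially encoded transcripts made up 5.65 to 7.91% of counts, with no separation of the diets (two-sided exact permutation test, p = 0.95). Every library had counts of the Y-linked Ddx3y (28 to 82), while Xist had at most 1 count. In a multidimensional scaling plot ChP replicates 2, 6 and 8 lay farthest from their nearest neighbor, and without each of them in turn there were 552, 521 and 580 DEGs.

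Prox1, the transcription factor that defines granule cell identity, and the markers of the same cells C1ql2, Dsp, Stxbp6, Pdzd2 and Tdo2 were all detected. Their summed level was 2304 to 2558 CPM in ChN libraries and 2125 to 2656 in ChP libraries, and none of the 6 was a DEG. The CA1 markers summed to 30.1 to 48.4 CPM over all 15 libraries and those of CA3 to 106 to 166. The inhibitory neuron markers summed to a median of 305 CPM in ChN (296 to 416) and 415 in ChP (331 to 462). The astrocyte sum had a median of 936 in ChN (891 to 1160) and 1065 in ChP (884 to 1264), the vascular sum 20.4 (16.1 to 28.5) and 27.8 (20.9 to 39.4), and the oligodendrocyte precursor sum 14.7 (11.7 to 20.2) and 22.3 (10.7 to 27.8). The mossy cell sum had a median of 41.8 in ChN (28.4 to 53.1) and 51.6 in ChP (44.9 to 63.6), and none of its 3 tested markers was a DEG. The groups overlapped in all of these sums. In pieces of tissue of this kind, more cells of a type and more RNA per cell cannot be told apart.

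Maternal choline supplementation left no gene in trisomic DGCs past correction for multiple testing. Of 14449 genes tested, 569 were DEGs, or 3.94%, of which 248 were higher (1.72%) and 321 lower (2.22%) in ChP. No gene had an adjusted p (edgeR, Benjamini-Hochberg) under 0.05, and the smallest was 0.36. DESeq2 gave 1 gene past the correction and limma-voom gave 0. Because a p under 0.05 falls to 5% of genes where nothing differs, which would be 722 genes here, every DEG named below is an unadjusted call in a comparison whose count was not above that level. With library totals in place of TMM scaling the counts turned to 310 higher and 247 lower DEGs, so the balance of directions depended on the scaling. Of the 569 DEGs, 299 had an LFC under 0.5 in size, and 104 had one over 1.

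**Figure D1:**
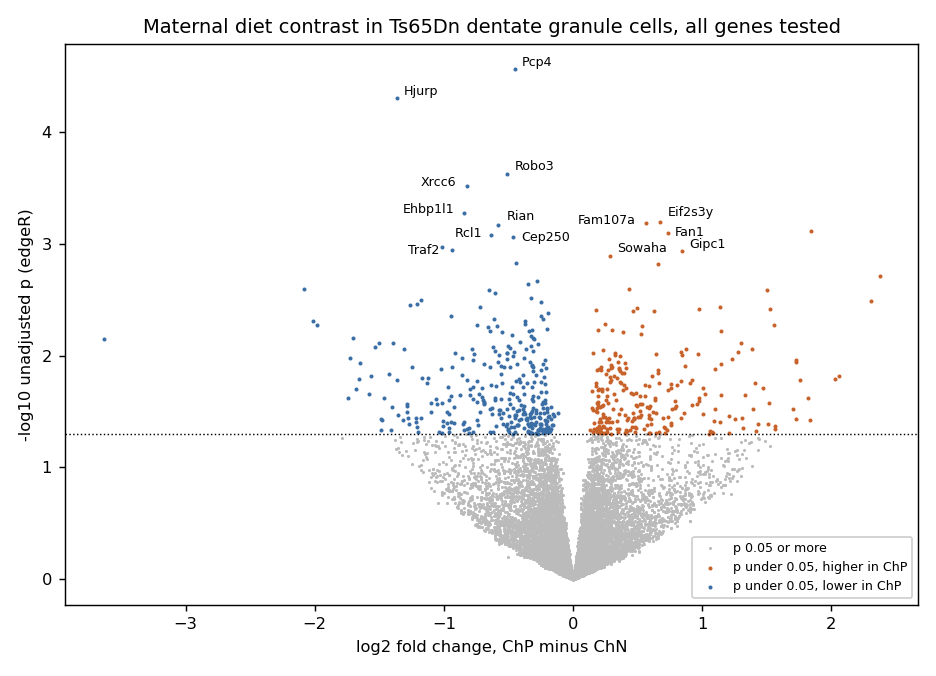
Each point is 1 of the 14449 genes tested, with its LFC (ChP minus ChN, log2) on the x axis and the negative log10 of its unadjusted edgeR p-value on the y axis, with a dotted line at 0.05. Pcp4 and Hjurp lie highest, both on the lower side, and no gene passes the adjusted threshold.

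The 95% intervals of the LFC show how tightly these libraries bound the difference between the diet groups. The fit had no covariate and took each mouse as independent. The intervals thus do not separate the diet from the mouse number prefix, described below, or from litter. For 72% of the genes the whole interval lay within a 2-fold change in either direction, and for 50.1% within a 1.5-fold change. Among the 7151 genes with a mean of 20 CPM or more, these shares were 99% and 91.6%. For genes under 5 CPM the interval was wide, with a median half-width of 1.12 on the log2 scale at 1 to 5 CPM.

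The gene with the smallest p was Pcp4, a calmodulin-binding peptide gene of the triplicated Mmu16 segment (chromosome 16, 96268806 to 96326997, GRCm39, plus strand). Its 6 ChN libraries lay at 169, 202, 227, 231, 240 and 251 CPM. The 9 ChP libraries lay at 116, 128, 153, 153, 156, 173, 175, 198 and 198 CPM, so 5 of the 6 ChN libraries were above every ChP library and 5 of the 9 ChP libraries were below every ChN library. The LFC was -0.45 ± 0.10 (SE; edgeR adjusted p = 0.36), a level 0.731 times that of ChN with a 95% interval from 0.64 to 0.836. Pcp4 is among the CA2 markers too. The sum of those 6 markers was 248 to 344 CPM in ChN and 213 to 296 in ChP, most of it from Pcp4 itself, and Pcp4 was the only DEG among them. Within the mice whose numbers start with 16 or 17, the prefixes that occur in both diets (6 ChN and 3 ChP libraries), the LFC of Pcp4 was -0.22, which did not pass the DEG threshold.

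Hjurp, which encodes the chaperone that deposits the centromeric histone variant CENP-A, showed the largest LFC among the named genes. Its level was 3.56 to 24.8 CPM in ChN with a median of 20.0, and 2.20 to 13.1 in ChP with a median of 7.48. All but 2 of the ChN libraries exceeded the highest ChP library. The LFC was -1.36 ± 0.31 (edgeR adjusted p = 0.36), and -0.78 within the shared number prefixes, still a DEG. Diet effects on Hjurp in the CA1 and CA3 pyramidal neurons of Ts mice were -0.94 and -0.89, both DEGs. Those libraries come from the same mice and are no independent replicates.

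The rest of the 12 lower DEGs with the smallest p had diverse roles. Robo3, an axon guidance receptor, had a median of 62.6 CPM in ChN (50.8 to 91.6) and 45.2 in ChP (36.2 to 59.8), an LFC of -0.51 ± 0.13. The Ku subunit gene Xrcc6, which acts in the joining of DNA ends, was at 22.3 CPM (14.2 to 32.7) and 14.0 CPM (7.17 to 20.3), and the trafficking gene Ehbp1l1 at 19.0 (12.9 to 26.0) and 11.01 (4.45 to 13.1). Traf2, an adaptor of tumor necrosis factor receptors, had medians of 11.3 and 7.17 CPM, with 5 ChN libraries above all ChP libraries. Cep250 (LFC -0.47), a centrosomal linker gene, Rcl1 (-0.64), an rRNA processing gene, Zfp655 (-0.44), a zinc finger gene, and Ppfia4 (-0.35), a liprin gene of the presynaptic active zone, completed the set together with Kcnh1 and Rian, which are described with their groups. The adjusted p of each was 0.999 (edgeR).

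Among the 12 higher DEGs with the smallest p, Gipc1, a PDZ adaptor of receptor trafficking, separated the diets completely. The ChN libraries lay at 4.74 to 11.7 CPM and the ChP libraries at 12.5 to 23.5, an LFC of 0.84 ± 0.25 (edgeR adjusted p = 0.999), and the call stayed in all 15 fits that each left out 1 library. Within the shared number prefixes the LFC was 0.64, not a DEG, and in the CA3 neurons of Ts mice it was -0.53, a DEG in the opposite direction. Complete separation of the diets was seen for 5 of the 14449 genes, or 0.0346%, 2 of them higher (0.0138%) and 3 lower (0.0208%) in ChP. Beside Gipc1 these were Phex, higher in ChP, and Slc25a30, Slc38a6 and the uncharacterized Gm47694, lower in ChP, all named after their values were seen. Fam107a, a stress-responsive gene of an actin-associated protein, had a median of 24.8 CPM in ChN (20.1 to 31.2) and 37.4 in ChP (31.1 to 48.4), and 8 of the 9 ChP libraries were above the highest ChN library. Its LFC was 0.57 ± 0.16. In the fit of all Ts libraries, CA1 neurons of the same mice gave an LFC of 0.67, a DEG as well, and CA3 neurons one of 0.09, not a DEG. Eif2s3y, the Y-linked gene of a translation initiation factor subunit, had medians of 24.9 and 39.4 CPM, with 7 ChP libraries above all ChN libraries and 1 below them.

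The remaining higher DEGs had diverse roles. Fan1, a nuclease gene of crosslink repair, had an LFC of 0.73, with medians of 13.4 and 22.6 CPM, and Osbpl1a, of the oxysterol-binding family, one of 0.66, with medians of 14.4 and 23.1 CPM. Sowaha (0.29) and Wipf3 (0.18), a gene of actin regulation, were abundant, Wipf3 with medians of 857 and 973 CPM. Dap3 (0.43), a mitochondrial ribosome gene, Ak6 (0.50), an adenylate kinase gene, Man1b1 (0.47), an endoplasmic reticulum mannosidase gene, Tril (0.98), a Toll-like receptor accessory gene, and Gon7 (1.14), a gene of the tRNA-modifying KEOPS complex, were the others. Within the shared number prefixes all 24 genes with the smallest p kept their direction, 16 stayed DEGs, and 6 moved by over 1.5 times (Pcp4, Hjurp, Sowaha, Dap3, Zfp655 and Kcnh1). The libraries of this subset, with all 6 ChN libraries, are among the 15 that chose these genes. Kept directions and calls are thus no independent check. ChN mice all had numbers starting with 16 or 17, whereas 6 of the 9 ChP mice had numbers starting with 14 or 15. What the prefix stands for is not given in the sources used here, and it cannot be told apart from the diet for those mice. Over all 69 DEGs that the rule for naming gave, 30 stayed DEGs within the shared prefixes, and 34 lost their call in at least 1 of the 15 fits that each left out 1 library.

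**Figure D2:**
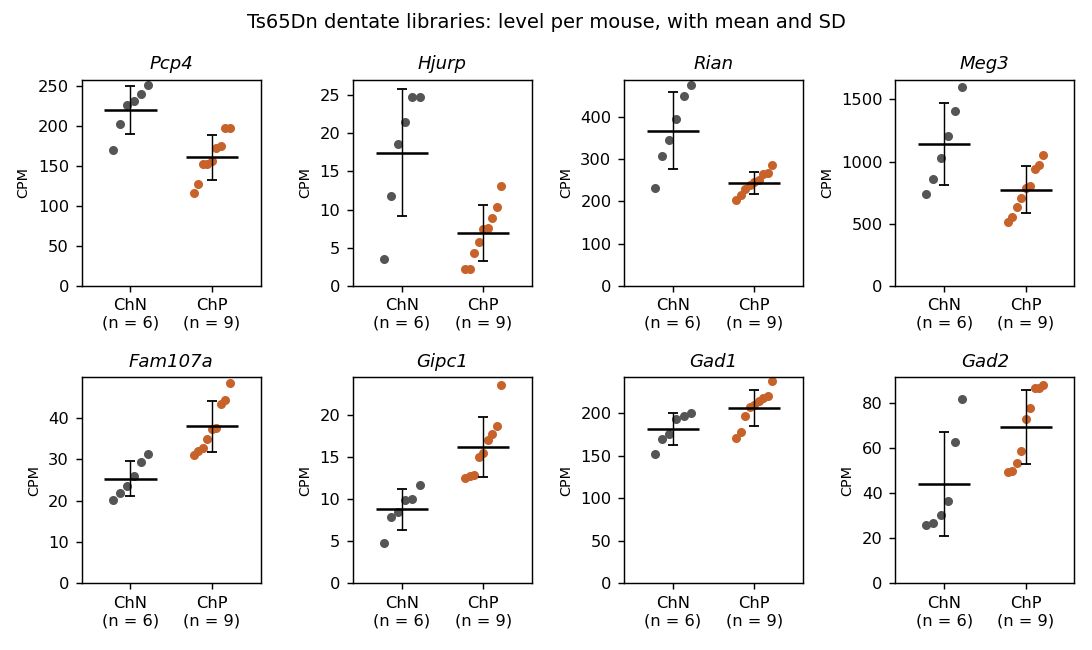
CPM of 8 genes in each of the 6 ChN and 9 ChP Ts dentate libraries (points), with the mean (bar) and SD (whisker) of each diet. Gipc1 is the only gene shown whose diets do not overlap, at 4.74 to 11.7 CPM in ChN and 12.5 to 23.5 in ChP.

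Among noncoding RNAs, 4 were lower DEGs. They came from a list of 14, chosen with earlier results of these data known, of which 13 were tested. The share of DEGs was 30.8%, against 3.94% of all genes, and no member was a higher DEG. The median LFC was -0.20, against -0.01 over all genes. The other 9 also had an LFC below 0, none of them a DEG, from -0.02 for Snhg12 to -1.06 for Snhg11 (95% interval -2.17 to 0.04). Rian, Meg3 and Mirg are neighbors in the imprinted Dlk1-Dio3 region of chromosome 12, expressed from the maternal chromosome. Meg3 (chromosome 12, 109506877 to 109538165, GRCm39) had 738, 859, 1032, 1209, 1410 and 1604 CPM in ChN and 514, 556, 637, 705, 785, 807, 937, 972 and 1053 CPM in ChP. Its LFC was -0.56 ± 0.20, and 3 ChN libraries exceeded every ChP library.

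Rian (chromosome 12, 109570242 to 109628150) was at 231 to 474 CPM in ChN with a median of 370, and at 202 to 285 in ChP with a median of 245. All but 1 of the ChN libraries were above every ChP library, and the LFC was -0.58 ± 0.13 (edgeR adjusted p = 0.999). Rian was the gene that passed the correction under DESeq2 (LFC -0.58, adjusted p = 0.0269), where edgeR and limma-voom passed none. Mirg (chromosome 12, 109696198 to 109715898) had medians of 21.6 and 14.3 CPM and an LFC of -0.62 ± 0.23, and it lost its call without ChN replicate 1 (LFC -0.47) or without ChN replicate 6 (LFC -0.45). ChN replicate 6 held the highest level of Meg3, Rian and Mirg alike, and ChN replicate 3 the lowest ChN level of all 3, so the 3 transcripts shared their highest and lowest ChN library. Within the shared number prefixes the LFC was -0.63 for Rian, -0.52 for Meg3 and -0.56 for Mirg, of which only Rian stayed a DEG.

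Miat, a long noncoding RNA of chromosome 5 that lies outside that region, had 624 to 699 CPM in ChN and 425 to 676 in ChP, an LFC of -0.20 ± 0.07. Malat1, the most abundant RNA of the list, had an LFC of -0.04 (95% interval -0.18 to 0.09) and medians of 32397 and 30958 CPM. Over all 965 annotated long noncoding RNAs tested, 14 were higher and 28 lower DEGs, 4.35% in all, with a median LFC of -0.04. Protein-coding genes made up 82.6 to 84.7% of counts in ChN libraries and 83.1 to 85.9% in ChP libraries, and the part of this in the noncoding RNA values was not tested.

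The genes that handle choline itself showed no DEG in either direction. Of 36 genes of choline uptake, phosphatidylcholine synthesis and choline release, 28 were tested, the median LFC was 0.02, and for 18 the whole interval lay within 1.5-fold. Pemt, whose enzyme makes phosphatidylcholine by methylation and is known mainly from liver, and Slc5a7, the high-affinity choline transporter gene of cholinergic terminals, did not pass the filter on low counts. Slc44a1, a choline transporter gene, had a median of 64.4 CPM in ChN (52.0 to 75.0) and 60.2 in ChP (55.5 to 77.6), an LFC of -0.05 with a 95% interval from -0.28 to 0.18. Chka, the choline kinase gene that opens the CDP-choline route, had medians of 89.7 and 89.2 CPM and an interval from -0.32 to 0.14. Pcyt1a, the gene of the rate-limiting cytidylyl transferase, had medians of 22.1 and 22.4 CPM with an interval from -0.37 to 0.38. Chpt1, the cholinephosphotransferase gene that ends the route, had medians of 14.8 and 19.2 CPM and the largest LFC in size along it (0.39, interval -0.04 to 0.82).

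One-carbon metabolism gave the same count. Of 38 genes of the betaine route, the methionine cycle and the folate cycle, 32 were tested and none was a DEG, with a median LFC of -0.01. The betaine-homocysteine methyltransferase genes Bhmt and Bhmt2 did not pass the filter, and Chdh, whose enzyme oxidizes choline to betaine, was barely detected (0 to 3.03 CPM in ChN, 0 to 5.16 in ChP). Among the abundant members, Mat2a, which encodes S-adenosylmethionine synthetase, had medians of 136 and 121 CPM (interval -0.27 to 0.11), and Ahcyl2 586 and 598 CPM (-0.12 to 0.14). Mthfd2, a mitochondrial folate enzyme gene, had an LFC of 0.98 with an interval from -0.05 to 2.01 at a mean of 3.54 CPM.

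Of 55 methylation writers, erasers and readers, 53 were tested, 2 were DEGs and both were lower, or 3.77%, near the 3.94% of all genes. Dnmt3a, the de novo DNA methyltransferase gene, was at 113 to 177 CPM in ChN and 90.4 to 133 in ChP, an LFC of -0.19 that was -0.10 and no longer a DEG without ChN replicate 5. Its call was lost without any of 8 of the 15 libraries. Kmt5a, the gene of a histone H4 lysine methyltransferase, had an LFC of -0.23, and its call was lost without any of 10 of the 15 libraries, among them ChN replicate 2 (LFC -0.14). The intervals of 45 of the 53 lay within 1.5-fold.

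**Figure D3:**
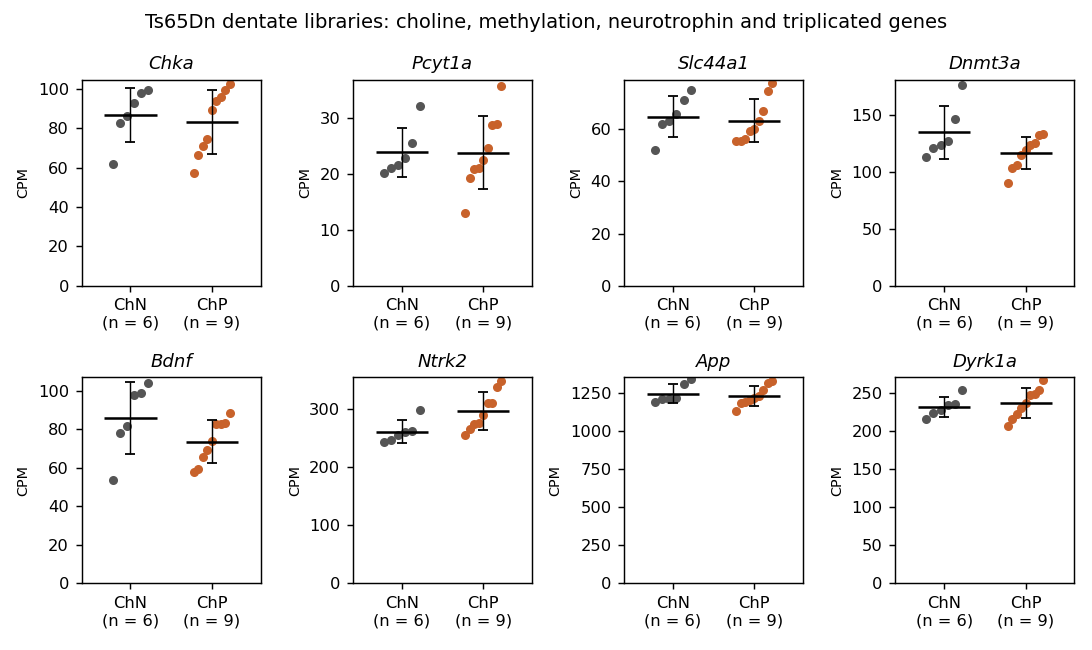
CPM per library in the 6 ChN and 9 ChP Ts dentate libraries for genes of choline handling (Chka, Pcyt1a, Slc44a1), methylation (Dnmt3a), neurotrophin signaling (Bdnf, Ntrk2) and the triplicated App and Dyrk1a, with the mean (bar) and SD (whisker). The diets overlap in every panel, and the LFC ranges from -0.21 for Bdnf to 0.18 for Ntrk2.

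None of the tested genes of cholinergic receptors and enzymes was a DEG. Of 30 listed, 12 were tested, with a median LFC of 0.00. The muscarinic receptor gene Chrm1 was the most abundant, with medians of 354 and 365 CPM and an interval from -0.09 to 0.19. The nicotinic receptor genes Chrna7 (38.2 and 34.4 CPM) and Chrnb2 (55.1 and 50.9 CPM) had LFCs of 0.01 and -0.11, and Chat, the gene of choline acetyltransferase, did not pass the filter.

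Neurotrophin and growth factor genes gave 3 DEGs among 27 tested of 33 listed (11.1%, against 3.94% of all genes). All 3 were higher in ChP, and the median LFC of the list was 0.13. This list too was chosen with earlier results of these data known. Ntrk2, which encodes the BDNF receptor TrkB, had a median of 259 CPM in ChN (243 to 299) and 291 in ChP (255 to 350), an LFC of 0.18 ± 0.07. With the log10 library total as a covariate, or with 1 surrogate variable, its LFC was 0.12 and not a DEG. The 2N mice had a diet LFC of 0.17 for this gene, a difference between genotypes of 0.00. Its ligand gene Bdnf was at 53.9 to 104 CPM in ChN and 58.1 to 88.4 in ChP, an LFC of -0.21 with an interval from -0.44 to 0.03. Vegfa, the vascular endothelial growth factor gene, had an LFC of 0.64 and medians of 10.4 and 14.3 CPM, and Fgfr2, a fibroblast growth factor receptor gene, one of 0.59 and medians of 6.93 and 10.3 CPM. The calls of Vegfa and Fgfr2 were lost in 4 and 6 of the 15 fits that each left out 1 library. The astrocyte and vascular marker sums given above were also higher in ChP at the median, and their part in these values was not tested.

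Genes of adult neurogenesis held no DEG among 22 tested of 31 listed, and the median LFC was 0.08. Dcx, the marker of immature granule cells, had medians of 22.9 and 19.4 CPM with an interval from -0.43 to 0.36. Sox11 had 79.0 and 77.4 CPM (interval -0.22 to 0.21) and Neurod1 68.5 and 66.9 CPM (-0.24 to 0.20), both transcription factors of granule cell differentiation. Mki67, a gene of cycling cells, was at a mean of 3.15 CPM, with an interval from -1.13 to 0.82. Prox1, which was present at 749 to 874 CPM in ChN and 788 to 945 in ChP, had an LFC of 0.11 ± 0.06 and was not a DEG.

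Among immediate early genes, transcripts that rise with neuronal activity, 37 of 41 were tested. Of these, 2 were lower DEGs (5.41%, against 3.94% of all genes), and the median LFC was -0.11. Nr4a2, an orphan nuclear receptor gene, was at 15.7 to 39.6 CPM in ChN and 5.24 to 21.5 in ChP, an LFC of -0.74 ± 0.25, and stayed a DEG in all 15 fits that each left out 1 library. Within the shared number prefixes the LFC of Nr4a2 was -0.59, not a DEG. Klf10 had an LFC of -0.50, which was -0.21 and not a DEG without ChN replicate 2. The other transcription factors included Fos (8.27 and 4.45 CPM at the median, interval -1.08 to 0.47), Egr1 (33.1 and 28.9 CPM, -1.31 to 0.15) and Jun (399 and 393 CPM, -0.14 to 0.14). Arc, the effector gene of synaptic plasticity, had medians of 38.8 and 35.8 CPM and an interval from -0.63 to 0.82.

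None of 35 glutamate receptor genes tested and none of 52 presynaptic release genes was a DEG, with median LFCs of -0.03 and 0.03, and 44 of the 52 release genes had intervals within 1.5-fold. Of 19 genes of GABA receptors and their channels, 1 was a DEG (5.26%, against 3.94% of all genes). This was Gabbr1, a GABA-B receptor subunit gene, which was higher (LFC 0.13, medians 514 and 552 CPM). It kept its call in 13 of 24 alternative fits, which include those that each left out 1 library. Among 64 voltage-gated channel genes, 5 were DEGs (7.81%, against 3.94% of all genes). The potassium channel genes Kcnh1, Kcnh3 and Kcnb2 were lower, with LFCs of -0.28, -0.25 and -0.26. Kcnh3 kept its call in 18 and Kcnb2 in 16 of the 24 alternative fits. Kcnh1 was at 129 to 168 CPM in ChN and 110 to 150 in ChP, but its LFC was -0.11 and not a DEG within the shared number prefixes. Cacnb3, a calcium channel subunit gene, was higher, at 85.3 to 109 CPM in ChN and 104 to 143 in ChP (LFC 0.22).

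The triplicated genes were taken from the study's list of those expressed in DGCs, so genes of the segments that are silent in these cells are not among them. The study covers ChN mice of both genotypes and no ChP mice, so the list was drawn from mice that include the ChN arm of this comparison. All of its 90 genes passed the filter, which is no finding for genes chosen as expressed, and the counts are not independent of the ChN libraries. Of the 90, 6 were DEGs (6.67%, against 3.94% of all genes), 2 higher and 4 lower, with a median LFC of -0.01. On Mmu16 (65 listed genes) Pcp4, A630089N07Rik, Son and Vps26c were lower and Dscam was higher, and on Mmu17 (25 listed genes) Pde10a was higher. Within the shared number prefixes A630089N07Rik had an LFC of -0.25, not a DEG, against -0.74 over all libraries. App, the amyloid precursor gene, had medians of 1215 and 1218 CPM and an LFC of -0.02 with an interval from -0.12 to 0.08. Dyrk1a, a dosage-sensitive kinase gene, had medians of 231 and 237 CPM and an interval from -0.12 to 0.17. Son, an RNA splicing gene, was at 1193 to 1384 CPM in ChN and 1110 to 1326 in ChP (LFC -0.12), a call lost without any of 8 of the 15 libraries. Dscam, a cell adhesion gene, had an LFC of 0.19, which was 0.12 and not a DEG without ChN replicate 5. Vps26c, a retromer-like sorting gene, had an LFC of -0.42, which was -0.28 and not a DEG without ChN replicate 1.

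Set beside the 2N dentate libraries, the listed triplicated genes lay higher on average in Ts mice under either diet. The mean of log2(CPM + 1) over the 65 listed Mmu16 genes was 4.97 to 5.15 in 2N ChN, 4.78 to 5.11 in 2N ChP, 5.56 to 5.68 in Ts ChN and 5.50 to 5.75 in Ts ChP, so every Ts library lay above every 2N library. For the 25 listed Mmu17 genes the ranges were 3.97 to 4.23, 3.77 to 4.20, 4.57 to 4.78 and 4.50 to 4.75 in the same order. For App the difference between Ts and 2N was 0.74 in ChN mice and 0.66 in ChP mice, past the threshold in both. For Pcp4 it was 0.85 and 0.63, also past the threshold in both. The diet LFC of Pcp4 in 2N mice was -0.24, not a DEG, and the difference between genotypes was -0.22 ± 0.21. These genotype differences share the Ts libraries with the diet comparison.

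Pde10a, a striatum-enriched phosphodiesterase gene, was at 135 to 169 CPM in Ts ChN and 161 to 209 in Ts ChP, an LFC of 0.24 ± 0.08, and stayed a DEG in all 15 fits that each left out 1 library. Its diet LFC in 2N mice was -0.14, not a DEG, and the difference between the genotypes was 0.38 ± 0.14, a value with no test since the gene was named for its effect in Ts mice. The log2 difference between Ts and 2N was 0.00 in ChN mice and 0.38 in ChP mice.

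**Figure D4:**
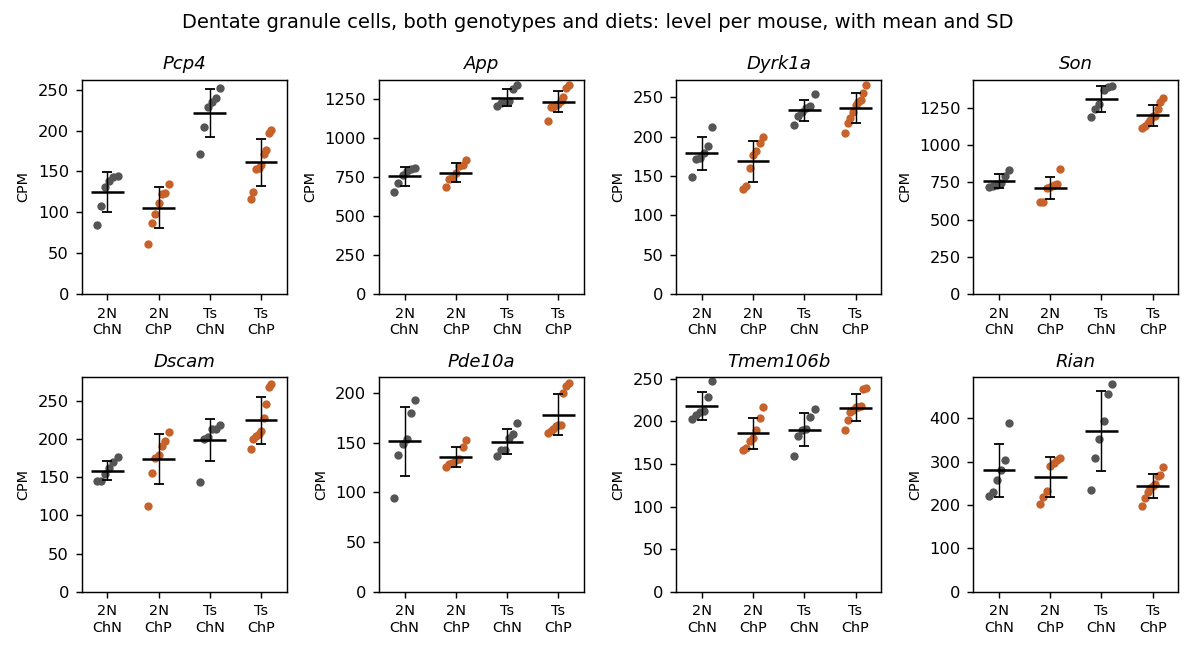
CPM of 8 genes in all 28 dentate libraries, by genotype and diet (6 2N ChN, 7 2N ChP, 6 Ts ChN, 9 Ts ChP), with the mean (bar) and SD (whisker). App and Son lie higher in Ts than in 2N under both diets, whereas the diet LFC of Tmem106b is 0.19 in Ts and -0.24 in 2N mice. Tmem106b is among the 6 genes with the smallest interaction p (edgeR adjusted p = 0.9997), a choice that favors opposite signs.

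Genes of endosomes, lysosomes and cholesterol held larger shares of DEGs than the 3.94% of all genes. These lists were chosen with earlier results of these data known. Of 64 endosome and lysosome genes tested, 3 were higher and 2 lower (7.81%), with a median LFC of 0.02. Tmem106b, a lysosomal membrane gene, was at 159.5 to 212 CPM in ChN and 191 to 237 in ChP (LFC 0.20), and Pik3r4, a subunit gene of the endosomal lipid kinase, and Snx2, a sorting nexin gene, had LFCs of 0.32 and 0.34. All 3 lost their call without ChN replicate 1. Of 40 cholesterol genes, 3 were DEGs (7.5%). Insig1 was higher (LFC 0.47), and Cyp46a1, whose enzyme clears cholesterol from neurons, and the sterol reductase gene Tm7sf2 were lower (-0.31 and -0.64). Tm7sf2 lost its call in 10 and Insig1 in 7 of the 15 fits that each left out 1 library. Of 20 genes of App processing, Mme, the neprilysin gene, was the only DEG (5.0%, against 3.94% of all genes). Its LFC was 0.76, with medians of 4.95 and 7.48 CPM, and its call was lost in 7 of those 15 fits. Bace1 and Adam10 had intervals that included 0.

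The groups of nuclear-encoded oxidative phosphorylation, ribosomal protein and chaperone genes held from 0 to 2 DEGs in each direction. Their shares were 1.25 to 3.85%, against 3.94% of all genes. Of 80 nuclear-encoded genes of oxidative phosphorylation only Cox6c was a DEG (LFC 0.20), a call lost in 6 of the 15 fits that each left out 1 library, with an LFC of 0.12 without ChP replicate 9. Of 83 cytosolic ribosomal protein genes Rps16 was higher and Rpl17 and Rpl31 were lower, with the calls of Rps16 and Rpl31 lost in 10 and 9 of those fits. Of 78 mitochondrial ribosomal protein genes, Mrpl1 (0.63) and Mrps33 (0.79) were higher and Mrpl53 (-0.58) was lower, and within the shared number prefixes Mrpl1 had an LFC of 0.39, not a DEG. Among 26 chaperone and stress genes Xbp1 was the only DEG (LFC -0.27), a call lost in 8 of those fits. Apart from these groups, the clustered protocadherins gave 3 higher and 2 lower DEGs of 56 (8.93%, against 3.94% of all genes). Pcdhgc5 was at 133 to 232 CPM in ChN and 202 to 259 in ChP (LFC 0.22). Counts of protocadherin isoforms that share exons depend on how RSEM divided the reads.

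**Figure D5:**
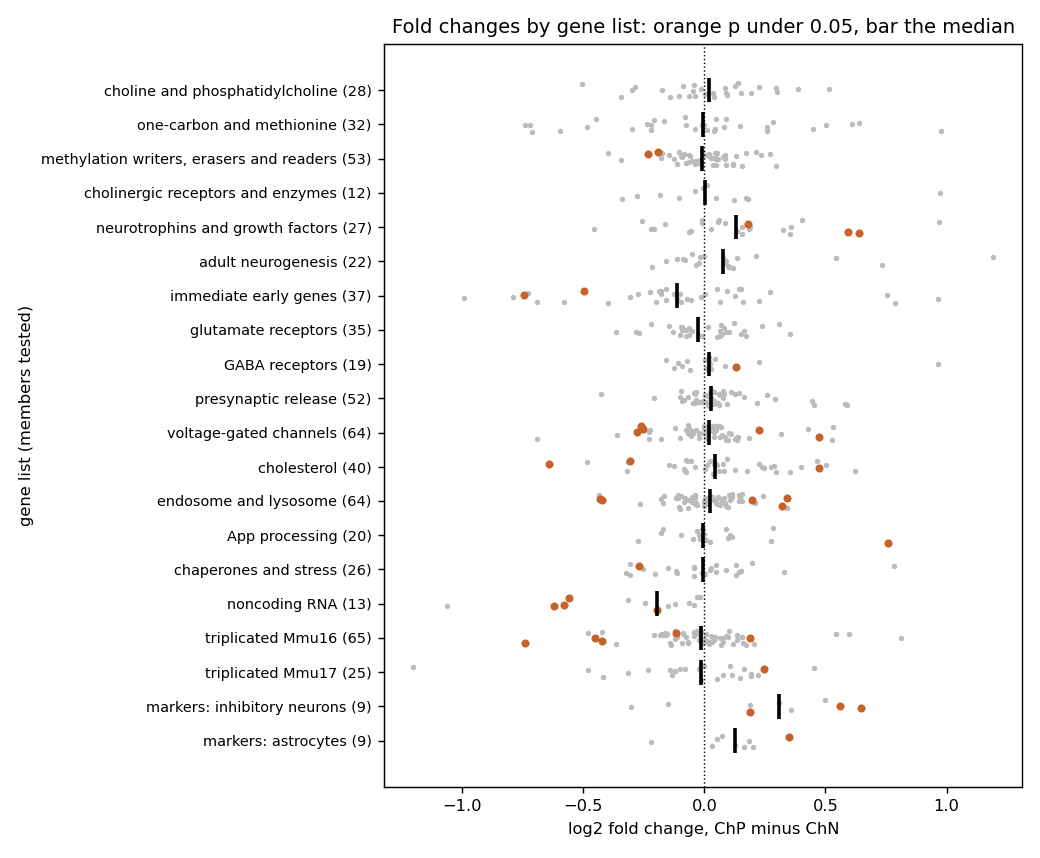
LFC (x axis, ChP minus ChN, log2) of each tested gene in 20 lists (rows, number of tested members in brackets); orange points are DEGs, grey points are not, and black bars are medians. Medians lie close to 0 in most lists, at -0.20 for the noncoding RNAs and 0.31 for markers of inhibitory neurons.

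Among the markers of inhibitory neurons are the genes of GABA synthesis and packaging. Gad1 and Gad2, which encode the glutamate decarboxylases, and Slc32a1, the vesicular GABA transporter gene, were higher DEGs. They were 3 of the 9 inhibitory neuron markers tested (33.3%, against 3.94% of all genes), a list chosen with earlier results of these data known. All 3 lost their call with the log10 library total as a covariate (LFC 0.16 for Gad1, 0.46 for Gad2 and 0.48 for Slc32a1). They lost it with 1 surrogate variable as well. Of the 9, 7 had an LFC above 0 and 2 below it, the lowest -0.30 for Pvalb. Gad1, which granule cells also transcribe, was at 152 to 201 CPM in ChN and 171 to 238 in ChP (LFC 0.19, and 0.14, not a DEG, without ChN replicate 1). Gad2 was at 26.0, 26.8, 30.3, 36.5, 62.8 and 81.7 CPM in ChN and at 49.3 to 87.8 in ChP (LFC 0.64). Its ChN libraries thus fell into a low set of 4 and a high set of 2, and the call was lost in 7 of the 15 fits that each left out 1 library, with LFCs from 0.54 to 0.60. Slc32a1 had medians of 12.7 and 17.8 CPM (LFC 0.56) and lost its call without ChN replicate 4, ChN replicate 6 or ChP replicate 1. The defining interneuron genes Sst and Vip did not pass the filter, Pvalb had medians of 2.69 and 2.58 CPM, and none of the 11 markers was at 0 in every library. Aldoc among 9 astrocyte markers (LFC 0.35) and Pdgfra among 5 of oligodendrocyte precursors (1.06) were also higher DEGs. Each was the only DEG of its list (11.1% and 20.0%), and in each list 1 marker had an LFC below 0. Pdgfra was at 0.84 to 3.03 CPM in ChN and 1.27 to 6.41 in ChP. Aldoc had an LFC of 0.20 within the shared number prefixes, not a DEG, and Pdgfra lost its call in 8 of the 15 fits that each left out 1 library.

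Whether the diet acted differently in Ts and 2N DGCs was tested by the interaction of genotype and diet over all 28 dentate libraries. Of 16537 genes, 656 had an unadjusted p under 0.05 (3.97%), 341 with the Ts effect above the 2N effect and 315 below it, and no gene had an adjusted p under 0.05 (edgeR; DESeq2 gave 1). In the same fit the diet gave 630 DEGs in Ts (3.81%) and 963 in 2N mice (5.82%). The 2N libraries held 696340 to 1469540 expected counts in ChN and 358355 to 1160838 in ChP. Their mouse number prefixes were 15 and 17 in ChN and 14, 15 and 16 in ChP, and the fit had no covariate for them. The DEG lists of the genotypes shared 38 genes, 6.03% of the Ts list and 3.95% of the 2N list, 30 of them in the same direction. Over the 7139 genes with a mean of 20 CPM or more, Spearman's rho between the LFCs of the genotypes was 0.09, a description across genes, which are not independent replicates.

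The 6 genes with the smallest interaction p had diet LFCs of opposite sign in the genotypes. A choice by the smallest interaction p favors such opposite signs, so they describe these 6 genes and are no separate result. Ly6e, a membrane glycoprotein gene, had a diet LFC of -0.28 in Ts and 0.51 in 2N mice (difference -0.79 ± 0.21, adjusted p = 0.9997). Tmem106b had 0.19 in Ts and -0.24 in 2N mice (difference 0.43 ± 0.12). The 2N medians were 211 CPM in ChN and 181 in ChP, and the Ts medians 190 and 216 in that fit. Exoc6b, a gene of the exocyst that docks vesicles, had LFCs of -0.10 and 0.43, Desi1, a deSUMOylating peptidase gene, -0.25 and 0.42, Rhobtb3 0.36 and -0.97, and Izumo4 -0.71 and 0.88. All 6 had an adjusted p of 0.9997 (edgeR). Genes named for their diet effect in Ts mice carry that effect into the interaction, so their differences are given as values, with no test. Among the lower noncoding RNAs the difference was -0.52 ± 0.21 for Rian, -0.62 ± 0.29 for Meg3, -0.46 ± 0.44 for Mirg and -0.11 ± 0.16 for Miat, with 2N diet LFCs of -0.07, 0.05, -0.17 and -0.10. For Fam107a it was 0.76 ± 0.25, with a 2N diet LFC of -0.20, and for Rcl1 -0.89 ± 0.27, with one of 0.24.

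A further 5 genes had been chosen for their difference between Ts and 2N dentate libraries. That choice used the Ts ChN libraries that the diet comparison uses too, so a smaller difference in ChP mice is what the choice alone can give, and their values are a description. Nrip3, a nuclear receptor interacting protein gene, had a median of 71.3 CPM in ChN (65.7 to 89.4) and 98.9 in ChP (58.5 to 108), an LFC of 0.30, beside 0.40 in 2N mice. The diet LFC was 0.16 for Cdhr1, -0.37 for Stc1, 0.16 for Grik3, a kainate receptor gene, and 0.21 for Sox4.

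The CA1 and CA3 pyramidal neurons of the same Ts mice, 14 and 13 libraries, served to show where the dentate differed. Over 18544 genes, the diet effect in DGCs differed from that in CA1 for 831 genes (4.48%) and from that in CA3 for 738 genes (3.98%) at an unadjusted p under 0.05, and for none with an adjusted p under 0.05 (edgeR). In this fit the diet gave 687 DEGs in DGCs, 1006 in CA1 (5.42%) and 809 in CA3 (4.36%). The dentate DEGs shared 47 genes with CA1 (6.84% of the dentate list, 4.67% of the CA1 list) and 50 with CA3 (7.28% and 6.18%), of which 36 and 33 had the same direction; these libraries come from the same mice. Meg3 and Rian had LFCs below 0 in CA1 (-0.29 and -0.13) and CA3 (-0.29 and -0.22) as well, none of them a DEG. Mirg had -0.30 in CA1, not a DEG, and -0.42 in CA3, a DEG. Miat had -0.38 in CA1, a DEG, and -0.23 in CA3, not a DEG.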

How the data were processed

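The series holds RNA-seq of CA1, CA3 and dentate neurons taken by LCM. The authors trimmed reads with Trimmomatic 0.39, aligned them to GRCm39 with STAR and deposited RSEM expected counts per gene (57010 identifiers). All 81 matrix columns equalled the per-library files. Gene symbols and coordinates come from Gencode vM39, which is on GRCm39 as well. Here the expected counts were rounded, genes over 0.1 CPM in at least 10 libraries were kept, as in the study, and TMM scaling and edgeR 4.0.16 quasi-likelihood tests (two-sided, robust; R 4.3.3) were applied to the 15 Ts dentate libraries, to all 28 dentate libraries for the interaction, and to all assigned Ts libraries of the 3 populations. The study's covariates (RNA concentration and Picard percentages) were not used here. CPM are counts scaled by TMM library sizes. The 95% intervals are LFC ± t × SE. DESeq2 1.42.0, limma-voom 3.58.1, other filters and scalings, 1 surrogate variable (sva 3.50.0), the log10 library total, shared mouse number prefixes and leaving out each library were alternatives. The CA3 library of 1 mouse, whose genotype label differed from that of the mouse's other libraries, was left out. Exact permutation tests (scipy) served for library totals and mitochondrial shares.

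Gene lists and markers were chosen with earlier results of these data known, and the triplicated genes are those the study, which covers ChN mice alone, lists as expressed in DGCs. Named genes were the 12 higher and 12 lower genes with the smallest p (mean over 5 CPM, no predicted genes or pseudogenes), up to 4 DEGs of each list (6 for triplicated, choline, one-carbon and methylation lists), the 6 smallest interaction p-values and a fixed set. Whether the diets were collected and prepared together is not given in the sources used here. Each replicate is a separate mouse, but litters are not given. The totals of 692841 to 1680698 expected counts limit the precision of genes under 5 CPM.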

Additional observations from a re-analysis of the deposited data

Results flagged for a closer look

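A library was noted where its distance from the nearest other library of its diet exceeded the 95% critical value of Dixon's test relative to the range of the group. Of 176 groups of values examined, 10 held such a library, where chance alone gives about 1 in 20. ChN replicate 5 gave 3 of them, with the lowest Cep250 (42.7 CPM, next 59.0), the lowest Dscam (142 CPM, next 198) and the highest Ntrk2 (299 CPM, next 263). ChP replicate 4 gave another 3, with the lowest Ehbp1l1 (4.45 CPM, next 9.61), the highest Aldoc (103 CPM, next 80.2) and the highest Pcdhgc5 (259 CPM, next 223). Klf10 was highest in ChN replicate 2 (50.3 CPM, next 28.4), and Cacnb3 in ChP replicate 2 (143 CPM, next 122). The summed excitatory neuron markers were highest in ChN replicate 1 (6308 CPM, next 5428), and ChP replicate 9 had the largest total (1680698 expected counts, next 938153).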

How the results depend on the processing

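No paired analysis was possible for the diet comparison because the diets share no mice. The count of 569 DEGs became 405 with DESeq2, 365 of 9277 genes with filterByExpr and 1202 of 23938 without a filter on low counts, and 450 within mouse number prefixes 16 and 17 (on the same 14449 genes, since 9 libraries cannot meet a minimum of 10). It was 521 to 636 when 1 library was left out. Genes with an adjusted p under 0.05 numbered 1 with DESeq2 (Rian), 4 without a filter (Rian, Pcp4, Hjurp and the snoRNA gene Snora16a, named here because of its value) and 0 to 2 with 1 library left out: Rian without ChN replicate 3, Hjurp and Pcp4 without ChN replicate 5, and Pcp4 without ChP replicate 9. All of these were lower in ChP, and the cause was not tested. Of 69 named DEGs, 16 kept their call under all 24 alternatives, and 3 more (Gon7, Traf2 and Tril) under the 23 that gave a value, since filterByExpr left these genes out. None changed direction where a value was given. With the log10 library total as a covariate, 50 of the 69 kept their call, and with 1 surrogate variable 50 did as well. For the interaction of genotype and diet, 1293 genes had an unadjusted p under 0.05 without a filter against 656, and 609 to 726 with 1 library left out. A predicted gene, Gm20458, named after its value was seen, was the 1 gene past the correction with DESeq2, without a filter and without Ts ChN replicate 4 (0 to 1 when 1 library was left out). Against CA1, 1 gene passed the correction without a filter (Tmem35b, named after its value was seen), and against CA3 there were 1116 DEGs in place of 738. With the mouse as a replicate block there were 698 DEGs against CA1 and 611 against CA3, none past the correction. The depth limits the precision under 5 CPM.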
